A study of Homo sapiens with 15 samples.

Results

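The lysosome and autophagy genes described here were 34 genes chosen by name from the 58780 gene rows of a read count table, and each symbol matched 1 row. Their levels were measured in 15 RNA libraries of atrial cardiomyocytes derived from H7, an established human embryonic stem cell line. The libraries fell into 5 groups of 3: cells given siRNA-1 or siRNA-2, both directed at ATRNL1, cells given a scramble siRNA, cells given a lentivirus with the short isoform of ATRNL1, and cells given a control lentivirus. ATRNL1 codes for a transmembrane relative of attractin, and the comparisons ask which genes change when it is lowered or raised. All groups carried the genotype label wt and came from spheroids turned towards atrial cells by a retinoid, which were dissociated at day 17. Lentiviral cells were selected with puromycin, per the labels' protocols. The labels give neither the vector's promoter, the siRNA sequences or doses, nor the days on which cells were treated and collected. All libraries come from 1 cell line, which the extraction protocol calls iPS-derived while the labels name embryonic stem cells.

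Lysosomes are acidic compartments in which hydrolases break down proteins, glycans and lipids. A proton pump in their membrane keeps them acidic, and macroautophagy delivers cytoplasm to them in double-membraned autophagosomes. In the heart the pathway removes damaged mitochondria and protein aggregates, and inherited loss of LAMP2 (Danon disease) or GAA (Pompe disease) causes cardiomyopathy. The transcription factors TFEB and TFE3 bind the CLEAR element in the promoters of many of these genes.

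Total counts ran from 37078568 to 108663135 per library, of which the 34 genes took 103550 to 332819. ATRNL1 itself was lower with siRNA-1 (-0.74, SE 0.11, adjusted p = 8.95e-05) and with siRNA-2 (-1.61, SE 0.12, adjusted p = 9.57e-10) than with scramble, and higher with the ATRNL1 lentivirus than with the control lentivirus (4.77, SE 0.12, adjusted p = 1.28e-19), values that are log2 fold changes. The cardiomyocyte marker TNNT2 was at 2528 to 3904 CPM (counts scaled to a common library size) over the libraries. Of 7 atrial markers MYL7 was at 1676 to 2637 CPM, NPPA at 31.8 to 104 CPM and NR2F2 at 42.0 to 74.1 CPM. MYL7 took most of their summed level, which with siRNA-1 was 1786 to 2390.0 CPM, where MYL7 was at 1676 to 2256 CPM. The ventricular marker MYL2 was high as well, at 3559.5 to 4233 CPM with the ATRNL1 lentivirus and at most 2326 CPM in the other groups. Of 9 macrophage markers, genes of a cell type rich in lysosomes, C1QA, C1QB and TYROBP had no count in any library and all 9 together summed to 1.04 to 2.06 CPM. In bulk RNA, fewer cells of a type and less RNA per cell cannot be told apart. The labels do not state whether libraries of a group are separate cultures. The p-values therefore reflect just the spread among these samples, and that spread may be technical. The tests share 1 estimate of it over the 5 groups, although the groups differed. The median SD of log2 CPM over 7258 genes above 20 CPM was 0.136 with the ATRNL1 lentivirus. In the other groups it ran from 0.0473 with the control lentivirus to 0.0664 with scramble. In 4 of the 5 groups, all but scramble, the number in 1 sample title joins the numbers of the other two titles, and what this means is not stated. If such a sample were a pool of the other two, the group would hold 2 separate samples, and the SDs, SEs and p-values given at n = 3 would be too small. The table's columns could not be matched to single titles. The share of genes above 20 CPM for which 1 library lay between the other two of its group was highest at 52.3% with siRNA-1, 40.4% with siRNA-2, 51.6% with the ATRNL1 lentivirus, 57.4% with the control lentivirus and 74.4% with scramble, and pooling was not tested.

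All 34 genes passed the filter on low counts. Levels per kilobase of exon count every annotated exonic base of a gene once. On that scale, in the scramble libraries, the most abundant was PSAP, the precursor of the saposins that help hydrolases reach their lipids, at 139.7 CPM per kilobase. The cysteine protease cathepsin B followed at 52.8 CPM per kilobase, then CTSL at 30.7, MAP1LC3B, whose product coats autophagosomes, at 28.8 and LAMP2, a glycoprotein that lines the lysosome, at 27.4 CPM per kilobase. HEXA was lowest at 0.817 CPM per kilobase, below ATG7 at 1.43, the lysosomal calcium channel gene MCOLN1 at 1.71 and LIPA at 1.74 CPM per kilobase. TFE3 stood at 6.92 and TFEB at 3.58 CPM per kilobase. A ranking by transcript length could differ. ASAH1, at 24.9 CPM per kilobase, has 15378 annotated exonic bases but 5740 in its longest transcript.

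The map of all genes by library shows the groups side by side. The lentiviral libraries stood apart from the siRNA libraries more than either knockdown stood apart from scramble, so siRNA groups are set against scramble and the ATRNL1 lentivirus against the control lentivirus first.

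**Figure D1:**
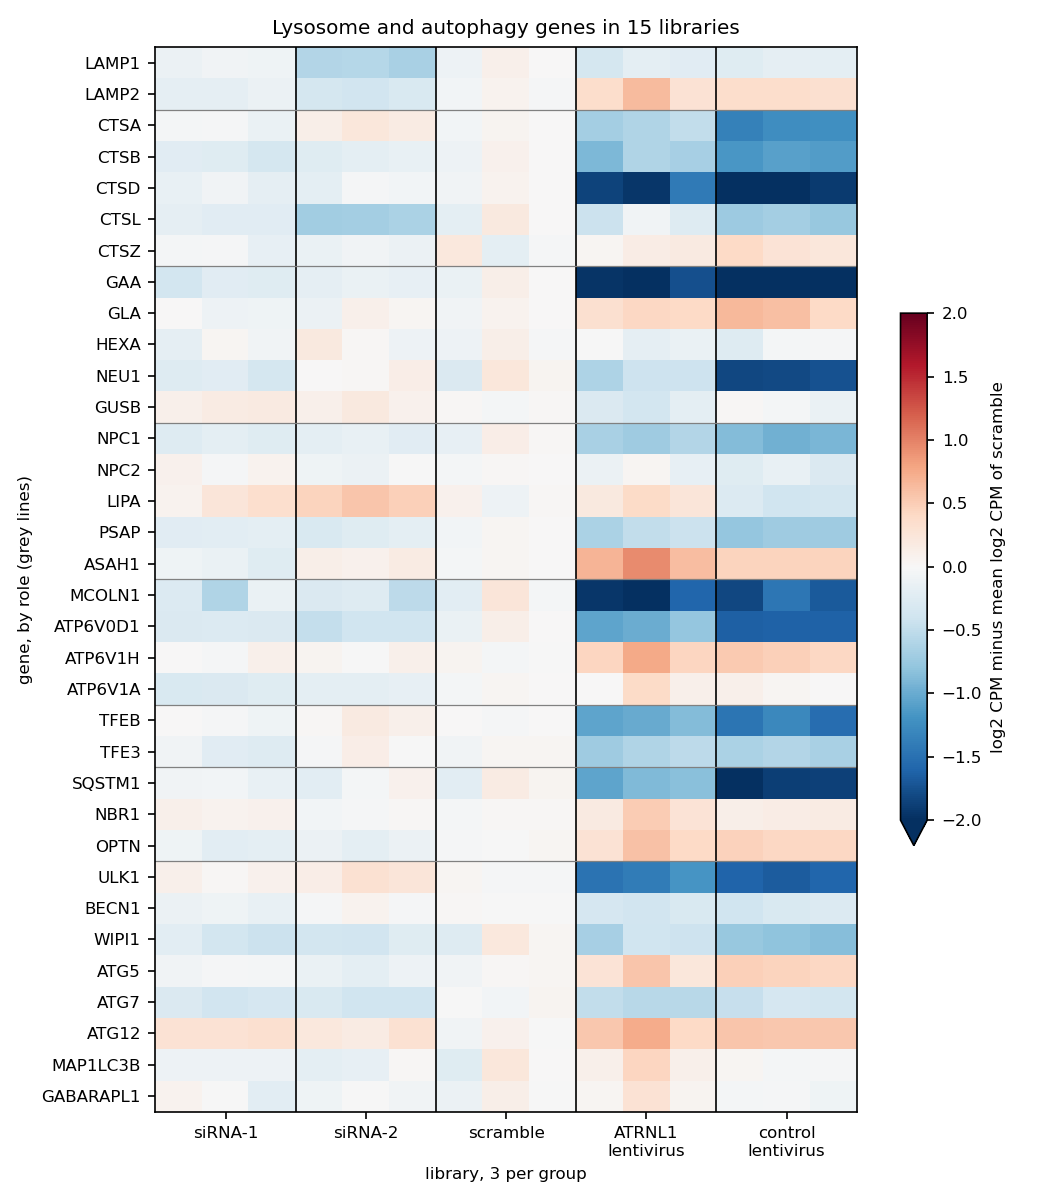
Heat map of the 34 lysosome and autophagy genes (rows, by role, parted by grey lines) in 15 libraries (columns, 3 per group). Colour is log2 CPM minus the mean log2 CPM of the 3 scramble libraries, with values below -2 drawn in the darkest blue. GAA and CTSD, at log2 fold changes of -2.31 and -2.11 for control lentivirus against scramble, are among the darkest rows in the lentiviral columns, and LAMP1 and CTSL are lower in the 3 siRNA-2 libraries than in the 3 scramble libraries.

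Promoters are shown for the genes whose window held an exact match to the core of the CLEAR element, which TFEB and TFE3 bind. The RefSeq promoter table (GRCh38.p14, 250 bases before to 50 after each gene's start) held 27 of the 34 genes. LAMP2, CTSB, HEXA, PSAP, ASAH1, ATP6V1H and ATP6V1A were not among them. The E-box CACGTG, a palindrome and so the same on both strands, was in 7 of these 27 promoters (25.9%), against 7.43% of the 27305 promoters in the table and 8.88% of the 15842 of protein-coding genes. The CLEAR core TCACGTGA, also a palindrome, contains the E-box and so is a subset of it. It was in 5 of 27 (18.5%), against 1.04% of all promoters and 1.43% of those of protein-coding genes. Among 119 promoters of other lysosome and autophagy genes 21% held the E-box and 8.4% the CLEAR core. The median GC content was 68.7% in the 27 promoters, 65.7% in those 119, 58.3% in all and 62.7% in those of protein-coding genes, and its part in these shares was not tested. NEU1 and CTSD had an E-box without the flanking bases of the CLEAR core. The 5 promoters with the CLEAR core follow from 5′ to 3′ on the gene's own strand, with every E-box in capitals. Their windows are LAMP1 at chr13:113296989-113297288 on the plus strand, GAA at chr17:80101331-80101630 on the plus strand, CTSA at chr20:45891085-45891384 on the plus strand, MCOLN1 at chr19:7522374-7522673 on the plus strand and ATP6V0D1 at chr16:67481108-67481407 on the minus strand.
LAMP1: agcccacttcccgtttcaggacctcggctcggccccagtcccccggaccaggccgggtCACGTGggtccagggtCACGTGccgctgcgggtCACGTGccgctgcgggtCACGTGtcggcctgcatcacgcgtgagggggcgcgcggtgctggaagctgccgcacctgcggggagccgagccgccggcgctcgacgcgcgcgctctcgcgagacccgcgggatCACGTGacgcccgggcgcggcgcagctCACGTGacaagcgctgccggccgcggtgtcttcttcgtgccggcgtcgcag
GAA: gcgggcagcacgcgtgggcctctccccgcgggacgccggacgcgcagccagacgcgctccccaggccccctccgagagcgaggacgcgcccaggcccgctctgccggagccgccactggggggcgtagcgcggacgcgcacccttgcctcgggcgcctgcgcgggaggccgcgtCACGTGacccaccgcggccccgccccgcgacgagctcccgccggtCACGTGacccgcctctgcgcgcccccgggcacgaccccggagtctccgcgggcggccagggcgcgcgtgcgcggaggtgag
CTSA: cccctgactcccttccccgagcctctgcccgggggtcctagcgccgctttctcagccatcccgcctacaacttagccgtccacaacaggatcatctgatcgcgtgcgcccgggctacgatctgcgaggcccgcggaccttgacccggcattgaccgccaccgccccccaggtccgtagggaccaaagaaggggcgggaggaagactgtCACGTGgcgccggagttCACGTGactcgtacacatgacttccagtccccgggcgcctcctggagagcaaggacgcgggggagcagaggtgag
MCOLN1: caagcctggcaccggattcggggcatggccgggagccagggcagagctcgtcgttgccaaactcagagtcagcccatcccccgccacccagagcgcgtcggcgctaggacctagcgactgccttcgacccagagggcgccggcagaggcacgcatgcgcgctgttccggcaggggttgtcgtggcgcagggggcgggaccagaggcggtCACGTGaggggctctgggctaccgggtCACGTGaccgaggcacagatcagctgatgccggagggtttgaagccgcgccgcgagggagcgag
ATP6V0D1: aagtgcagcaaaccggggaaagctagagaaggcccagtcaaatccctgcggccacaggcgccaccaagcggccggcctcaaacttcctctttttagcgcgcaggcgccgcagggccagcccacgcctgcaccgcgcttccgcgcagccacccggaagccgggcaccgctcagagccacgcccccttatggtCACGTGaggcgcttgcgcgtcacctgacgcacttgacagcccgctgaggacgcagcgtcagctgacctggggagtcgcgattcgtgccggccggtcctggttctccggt
LAMP1 held 6 E-boxes, which began 192, 176, 159, 142, 28 and 1 bases before its start, and the 2 nearest to the start were CLEAR cores. GAA held 2 CLEAR cores at 76 and 31 bases before its start and MCOLN1 held 2 at 41 and 14 bases. In CTSA the E-box at 25 bases was a CLEAR core and the E-box at 42 bases was not, and the ATP6V0D1 core lay at 59 bases. A match is a description of these letters, and binding was not measured. Only exact matches inside these windows were sought, so a gene without one is not shown to lack a site.

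Against scramble, the largest changes among these genes were falls of the lysosomal membrane protein LAMP1 and of cathepsin L with siRNA-2, while the changes with siRNA-1 were at most 0.35 in size on the log2 scale. With siRNA-2, 3 of the 34 genes rose and 7 fell, 29.4% of them, where 18.1% of all 24659 genes tested passed (9.64% higher and 8.48% lower). The split of 3 and 7 became 5 and 7 with scaling by library size only and 1 and 7 with DESeq2 size factors. With siRNA-1, 1 rose and 9 fell, again 29.4%, where 9.61% of all genes passed (5.85% higher and 3.76% lower). The shares over all genes, here and below, include many genes of lower level than most of the 34. Of the 24659 genes, 11034 were above 5 CPM, and shares among genes of like level were not computed. A gene counts as called at an adjusted p under 0.05, and every adjusted p is from edgeR's quasi-likelihood test (Benjamini-Hochberg, all tested genes). The median log2 fold change of the 34 genes was -0.08 with siRNA-2, against 0.00 over all genes tested, and -0.11 with siRNA-1, against -0.01 over all genes. With the GC offset described below for the lentiviruses, siRNA-2 had 5 higher and 11 lower, where 22.3% of all genes passed (12.4% higher and 9.83% lower). With that offset siRNA-1 had 1 higher and 13 lower, where 13.4% of all genes passed (7.51% higher and 5.84% lower). The offset ended no call with either siRNA. It added falls of LAMP2 (-0.18, adjusted p = 0.00884), CTSL (-0.22, adjusted p = 0.0371), ASAH1 (-0.16, adjusted p = 0.0345) and OPTN (-0.19, adjusted p = 0.00907) with siRNA-1. With siRNA-2 it added falls of CTSB (-0.18, adjusted p = 0.0126), GAA (-0.21, adjusted p = 0.0394), MCOLN1 (-0.39, adjusted p = 0.0379) and ATP6V1A (-0.15, adjusted p = 0.0313) and rises of CTSA (0.14, adjusted p = 0.0166) and ASAH1 (0.16, adjusted p = 0.0282). Each of these added calls had a smaller SE with the offset, such as LAMP2 with siRNA-1 (-0.16, SE 0.07 without it and -0.18, SE 0.04 with it). The median of the 34 genes with the offset was -0.11 with siRNA-1 and -0.09 with siRNA-2. Why the SE was smaller was not tested. A gene described below as passing with 1 siRNA and not the other did so without the offset. Both comparisons use the same 3 scramble libraries, so their values are given side by side and neither is independent support for the other.

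Both genes for the major glycoproteins of the lysosomal membrane fell with siRNA-2. LAMP1 (ENSG00000185896, chromosome 13, 113297241 to 113323672, plus strand, GRCh 38, as all gene positions below) had 97.2, 99.9 and 99.6 CPM with siRNA-1 and 70.2, 71.2 and 67.2 CPM with siRNA-2, against 97.9, 113 and 106 CPM with scramble. The siRNA-2 libraries lay below all others, while the siRNA-1 libraries overlapped scramble. The log2 fold change with siRNA-2 was -0.60, SE 0.07, adjusted p = 3.05e-07, and with siRNA-1 it did not pass the test (-0.10, adjusted p = 0.455). LAMP2 (ENSG00000005893, chromosome X, 120427827 to 120469365, minus strand) had 133, 133 and 139.8 CPM with siRNA-1 and 118, 116 and 122 CPM with siRNA-2, against 146, 159 and 149 CPM with scramble. All 6 siRNA libraries were below the 3 scramble libraries, and the fall passed with siRNA-2 (-0.36, SE 0.07, adjusted p = 0.00105) and not with siRNA-1 (-0.16, adjusted p = 0.192).

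Among the cathepsins, the lysosomal proteases, CTSL showed the widest difference. This gene for a cysteine protease (ENSG00000135047, chromosome 9, 87725519 to 87731393, plus strand) had 63.8, 61.8 and 61.6 CPM with siRNA-1 and 44.8, 45.0 and 46.7 CPM with siRNA-2, against 63.2, 82.5 and 72.6 CPM with scramble. Its siRNA-2 libraries lay below every scramble library and the fold change was -0.68, SE 0.08, adjusted p = 2.05e-06, whereas siRNA-1 overlapped scramble (-0.22, adjusted p = 0.105). CTSB, a cysteine protease abundant in these cells (ENSG00000164733, chromosome 8, 11842524 to 11869448, minus strand), had 336, 332 and 306 CPM with siRNA-1 and 331, 343 and 353 CPM with siRNA-2, against 367, 414 and 396 CPM with scramble. Both siRNA groups were below scramble without overlap, and the fall passed with siRNA-1 (-0.27, SE 0.08, adjusted p = 0.0191) and not with siRNA-2 (-0.20, adjusted p = 0.0745). CTSA, a serine carboxypeptidase that protects NEU1, did not pass with either siRNA (-0.07, adjusted p = 0.625 for siRNA-1 and 0.17, adjusted p = 0.0854 for siRNA-2). The aspartic protease gene CTSD was at -0.14 with siRNA-1 and -0.09 with siRNA-2, and CTSZ was at -0.08 and -0.12 in the same order, none of them past the test. Of the exonic bases of CTSD, 41.715% are shared with a neighbouring protein-coding gene of the same strand, which makes its level uncertain.

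Of the glycosidases, which trim glycans and glycolipids, 2 of 5 fell with siRNA-1 and 0 of 5 passed with siRNA-2. Over all genes tested 3.76% fell with siRNA-1 and 18.1% passed with siRNA-2. GAA, acid alpha-glucosidase, which degrades glycogen (ENSG00000171298, chromosome 17, 80101556 to 80119879, plus strand), had 20.9, 22.9 and 22.7 CPM with siRNA-1 and 23.7, 24.6 and 24.1 CPM with siRNA-2, against 24.5, 29.3 and 27.2 CPM with scramble. It fell with siRNA-1 (-0.29, SE 0.09, adjusted p = 0.0406), whose libraries were all below scramble, and did not pass with siRNA-2 (-0.16, adjusted p = 0.231). NEU1, a sialidase (ENSG00000204386, chromosome 6, 31857659 to 31862906, minus strand), had 27.5, 28.1 and 25.9 CPM with siRNA-1 and 33.0, 33.6 and 36.0 CPM with siRNA-2, against 27.1, 38.4 and 34.4 CPM with scramble. Its scramble libraries were spread so widely that both siRNA groups overlapped them, with a fall called with siRNA-1 (-0.30, SE 0.09, adjusted p = 0.0384) and a value of 0.03, adjusted p = 0.854 with siRNA-2. The alpha-galactosidase gene GLA stood at 4.38 ± 0.187 CPM with siRNA-1, 4.58 ± 0.337 CPM with siRNA-2 and 4.56 ± 0.210 CPM with scramble (mean ± SD, n = 3 each, as for every mean below). HEXA, the alpha subunit of beta-hexosaminidase, and GUSB, beta-glucuronidase, also did not pass, with GUSB at 0.15 and 0.13 on the log2 scale for siRNA-1 and siRNA-2.

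The genes of lipid handling moved in both directions with siRNA-2. LIPA, lysosomal acid lipase, which frees cholesterol and fatty acids from stored esters (ENSG00000107798, chromosome 10, 89213569 to 89414557, minus strand), had 8.98, 10.1 and 10.7 CPM with siRNA-1 and 11.6, 12.5 and 11.9 CPM with siRNA-2, against 8.99, 7.90 and 8.68 CPM with scramble. The siRNA-2 libraries were above every scramble library (0.49, SE 0.09, adjusted p = 0.000219) and the siRNA-1 libraries overlapped them (0.22, adjusted p = 0.141). PSAP (ENSG00000197746, chromosome 10, 71816298 to 71851375, minus strand) had 385, 389 and 396 CPM with siRNA-1 and 366, 383 and 397 CPM with siRNA-2, against 435, 466 and 457 CPM with scramble. All 6 siRNA libraries were below scramble, and the fall passed with siRNA-1 (-0.21, SE 0.07, adjusted p = 0.0411) and with siRNA-2 (-0.25, SE 0.07, adjusted p = 0.0102). NPC1, which exports cholesterol from the lysosome (ENSG00000141458, chromosome 18, 23506184 to 23586898, minus strand), had 38.3, 39.8 and 38.7 CPM with siRNA-1 and 40.1, 41.1 and 39.2 CPM with siRNA-2, against 41.0, 50.1 and 46.7 CPM with scramble. Its siRNA-1 libraries lay below scramble (-0.24, SE 0.07, adjusted p = 0.0289) and its siRNA-2 libraries overlapped scramble (-0.20, adjusted p = 0.0514). Its partner NPC2 was at 0.05 with siRNA-1 and -0.07 with siRNA-2, and ASAH1, acid ceramidase, was at -0.15 and 0.13, none past the test.

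ATP6V0D1, a subunit of the membrane sector of the proton pump (ENSG00000159720, chromosome 16, 67438014 to 67481237, minus strand), fell with both siRNAs. It had 80.3, 81.2 and 80.6 CPM with siRNA-1 and 70.3, 74.3 and 74.4 CPM with siRNA-2, against 89.8, 107 and 98.7 CPM with scramble, with no overlap. The log2 fold change was -0.29, SE 0.07, adjusted p = 0.0106 for siRNA-1 and -0.44, SE 0.07, adjusted p = 0.000102 for siRNA-2. ATP6V1A, the catalytic subunit of the pump's cytosolic sector (ENSG00000114573, chromosome 3, 113747019 to 113812056, plus strand), had 65.3, 65.6 and 68.2 CPM with siRNA-1 and 70.1, 70.0 and 71.6 CPM with siRNA-2, against 77.9, 82.2 and 80.7 CPM with scramble. All 6 siRNA libraries were again below scramble, and the fall passed with siRNA-1 (-0.27, SE 0.08, adjusted p = 0.0189) and not with siRNA-2 (-0.19, adjusted p = 0.0883). ATP6V1H, a regulatory subunit of the same sector, was at 0.03 and 0.05 on the log2 scale for siRNA-1 and siRNA-2. MCOLN1, whose channel releases calcium from the lysosome (ENSG00000090674, chromosome 19, 7522626 to 7534009, plus strand), was low and scattered, with 5.58, 4.42 and 6.10 CPM with siRNA-1 and 5.49, 5.64 and 4.70 CPM with siRNA-2, against 5.78, 7.99 and 6.57 CPM with scramble. Neither difference passed (-0.33, adjusted p = 0.158 for siRNA-1 and -0.36, adjusted p = 0.0739 for siRNA-2).

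Neither transcription factor passed the test with an siRNA. TFEB (ENSG00000112561, chromosome 6, 41683978 to 41736259, minus strand) had 20.3, 20.0 and 19.1 CPM with siRNA-1 and 20.5, 22.8 and 21.7 CPM with siRNA-2, against 20.4, 20.0 and 20.3 CPM with scramble, at log2 fold changes of -0.03, adjusted p = 0.882 and 0.10, adjusted p = 0.441. TFE3 (ENSG00000068323, chromosome X, 49028726 to 49043486, minus strand) had 28.3, 25.4 and 24.9 CPM with siRNA-1 and 29.0, 32.5 and 29.3 CPM with siRNA-2, against 28.3, 30.3 and 30.3 CPM with scramble, at -0.18, adjusted p = 0.147 and 0.03, adjusted p = 0.848. The activity of both factors is set largely by their entry into the nucleus, which RNA levels do not measure. The 5 genes with a CLEAR core had a median log2 fold change of -0.29 with siRNA-1, from -0.33 to -0.07, against -0.09 in the 22 other genes of the promoter table. With siRNA-2 the medians were -0.36, from -0.60 to 0.17, and -0.06. Of the 5, 2 were called lower with each siRNA, GAA and ATP6V0D1 with siRNA-1 and LAMP1 and ATP6V0D1 with siRNA-2. Of the 22 others 4 were called lower with siRNA-1 and 3 with siRNA-2, where 3.76% and 8.48% of all genes were.

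In the autophagy machinery, ATG7 and WIPI1 fell and ATG12 rose with both siRNAs. ATG7, the enzyme that activates the ubiquitin-like proteins of autophagy (ENSG00000197548, chromosome 3, 11272309 to 11557665, plus strand), had 10.4, 9.75 and 10.0 CPM with siRNA-1 and 10.2, 9.65 and 9.63 CPM with siRNA-2, against 12.6, 12.2 and 13.2 CPM with scramble, without overlap. The log2 fold change was -0.33, SE 0.08, adjusted p = 0.00689 for siRNA-1 and -0.36, SE 0.08, adjusted p = 0.00126 for siRNA-2. Its exons share 18.069% of their bases with VGLL4 on the opposite strand, and the counting is not stated to use strand. ATG12, which is joined to ATG5 in the complex that attaches LC3 proteins to membranes (ENSG00000145782, chromosome 5, 115828200 to 115841858, minus strand), had 59.8, 60.1 and 61.2 CPM with siRNA-1 and 56.7, 55.0 and 60.9 CPM with siRNA-2, against 46.6, 52.2 and 48.9 CPM with scramble. All 6 siRNA libraries were above the 3 scramble libraries (0.29, SE 0.07, adjusted p = 0.0110 for siRNA-1 and 0.22, SE 0.07, adjusted p = 0.0369 for siRNA-2). WIPI1, which binds the lipid that marks growing autophagosomes (ENSG00000070540, chromosome 17, 68420948 to 68457513, minus strand), had 29.9, 26.8 and 25.6 CPM with siRNA-1 and 26.7, 26.5 and 29.3 CPM with siRNA-2, against 28.9, 40.0 and 35.6 CPM with scramble. Its exons share 24.339% of their bases with ARSG on the opposite strand. Library 1 of scramble overlapped both siRNA groups, and the falls were called at -0.35, SE 0.10, adjusted p = 0.0186 and -0.34, SE 0.09, adjusted p = 0.0111.

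ULK1, the kinase that starts autophagosome formation (ENSG00000177169, chromosome 12, 131894651 to 131923167, plus strand), had 35.5, 33.5 and 35.0 CPM with siRNA-1 and 36.5, 40.9 and 39.0 CPM with siRNA-2, against 34.1, 32.6 and 32.7 CPM with scramble. The siRNA-2 libraries were above scramble (0.23, SE 0.07, adjusted p = 0.0283) and siRNA-1 did not pass (0.07, adjusted p = 0.688). Of the cargo receptors, which tie ubiquitinated cargo to autophagosomes, none of 3 passed with either siRNA. Over all genes tested 9.61% passed with siRNA-1 and 18.1% with siRNA-2. SQSTM1 (ENSG00000161011, chromosome 5, 179806398 to 179838078, plus strand) had 86.8, 87.4 and 82.0 CPM with siRNA-1 and 78.5, 88.0 and 96.9 CPM with siRNA-2, against 78.2, 102 and 94.1 CPM with scramble, at -0.10, adjusted p = 0.574 and -0.06, adjusted p = 0.710. NBR1 was at 0.09 and -0.02 and OPTN at -0.17 and -0.14 on the log2 scale for siRNA-1 and siRNA-2. The ubiquitin-like proteins that coat autophagosomes gave -0.11 and -0.13 for MAP1LC3B and -0.05 and -0.06 for GABARAPL1, while BECN1, a scaffold of the lipid kinase of autophagy, gave -0.12 and 0.01. ATG5 was at -0.05 with siRNA-1 and -0.15 with siRNA-2, and none of these values passed the test.

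**Figure D2:**
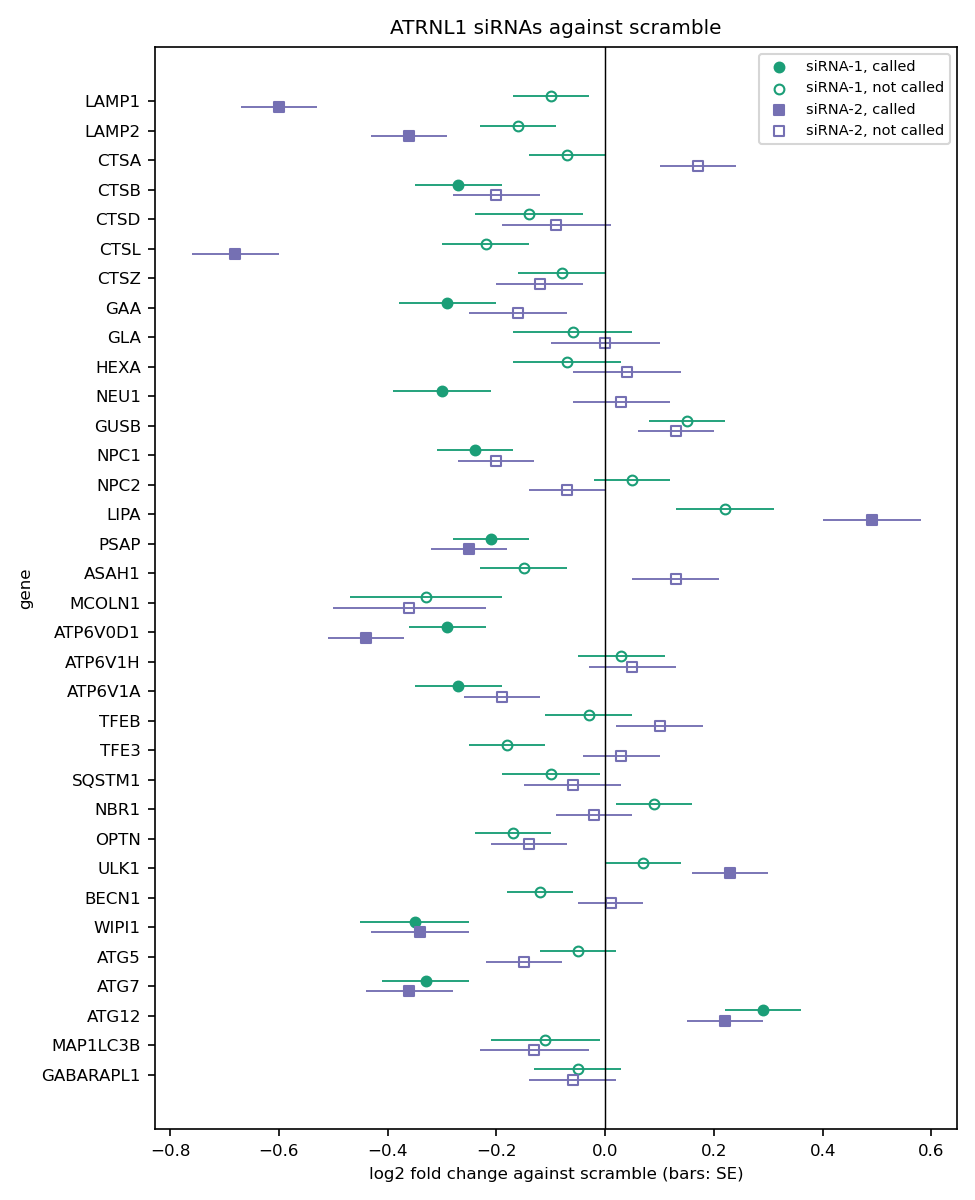
Log2 fold change against scramble (horizontal axis) of each of the 34 genes (vertical axis) for siRNA-1 (circles) and siRNA-2 (squares), with bars for the SE and filled symbols for genes called at an adjusted p under 0.05. LAMP1 (-0.60) and CTSL (-0.68) with siRNA-2 lie farthest to the left and LIPA with siRNA-2 (0.49) farthest to the right.

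The siRNA-1 and siRNA-2 calls differed in how far they rested on single libraries. With siRNA-2, LAMP1 and CTSL kept their calls in all 16 alternatives tried, and LAMP2, LIPA, ATP6V0D1 and ATG7 kept theirs with any 1 library left out. With each of the 6 libraries left out in turn, the call of PSAP was kept 5 times and ended without siRNA-2 library 1 (-0.21). That of WIPI1 ended without siRNA-2 library 1 or 2 or scramble library 2, and its log2 fold change ran from -0.46 to -0.24. That of ULK1 ended without siRNA-2 library 2 or 3 or scramble library 2 or 3 (0.19 to 0.27), and that of ATG12 was kept only without scramble library 2 (0.18 to 0.27). With siRNA-1, each of the 10 calls ended when some 1 library was left out. The number of genes called was then 5, 1 and 3 without siRNA-1 libraries 1, 2 and 3 and 11, 2 and 0 without scramble libraries 1, 2 and 3. Over these fits the log2 fold change ran from -0.41 to -0.18 for NEU1, -0.45 to -0.23 for WIPI1, -0.34 to -0.22 for GAA, -0.34 to -0.22 for ATP6V0D1 and -0.36 to -0.29 for ATG7. It ran from -0.31 to -0.22 for CTSB, -0.30 to -0.17 for NPC1, -0.23 to -0.19 for PSAP, -0.28 to -0.25 for ATP6V1A and 0.27 to 0.35 for ATG12, the gene whose call ended only without scramble library 3. At an unadjusted p under 0.05, 13 genes passed without scramble library 3. When scramble library 1 alone served as control no gene passed in edgeR with siRNA-1 (4 at an unadjusted p under 0.05). With library 3 alone none passed either (10 at an unadjusted p under 0.05), and with library 2 alone 8 did. On all libraries DESeq2 called 9 and limma-voom 10. For the fits in this paragraph the share of all genes called is not given. A general loss of calls with fewer libraries was therefore not set apart from a loss particular to these genes.

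The scramble libraries differed among themselves in these genes. Library 1 was the lowest of the 3 for 26 of the 34 genes and library 2 the highest for 23. The mean log2 CPM over the 34 genes was 5.50, 5.49 and 5.48 in the siRNA-1 libraries and 5.47, 5.52 and 5.52 in the siRNA-2 libraries, against 5.52, 5.66 and 5.61 in the scramble libraries. Genes of the unfolded protein response, which raises chaperones of the endoplasmic reticulum, stood in the same order over the 3 scramble libraries. They did so too over ATRNL1 lentivirus libraries 1, 2 and 3 (6.14, 6.48 and 6.31, against 5.19, 5.33 and 5.30 for the 34 genes). They did not over the siRNA-1 libraries. Over the siRNA-2 libraries the 34 genes had tied means (5.52 and 5.52). The unfolded protein response genes had tied means over the control lentivirus libraries (5.81, 5.84 and 5.81, against 5.04, 5.08 and 5.05 for the 34 genes). An order over 3 libraries is only a description. Their mean log2 CPM over 15 genes was 6.08, 6.18 and 6.27 with siRNA-1 and 6.08, 6.14 and 6.21 with siRNA-2, against 6.60, 7.73 and 7.29 in scramble libraries 1, 2 and 3, and their part in the lysosomal result was not tested. The 13 mRNAs encoded by the mitochondrial genome summed to 38548 to 48033 CPM with siRNA-2, against 60184 to 63714 CPM with scramble, and their part was not tested either. The 34 genes included 14 whose siRNA-1 libraries all lay on one side of scramble and 18 whose siRNA-2 libraries did, where 28.8% and 36.7% of tested genes showed this.

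The direct comparison of siRNA-1 with siRNA-2 does not involve scramble, and it tests whether the siRNAs differed. Of the 34 genes 2 were higher and 3 lower with siRNA-1, 14.7%, where 10.1% of all genes tested passed (5.60% higher and 4.53% lower). LAMP1 was 1.42-fold higher with siRNA-1 (0.51, SE 0.07, adjusted p = 8.73e-06) and CTSL 1.37-fold higher (0.45, SE 0.08, adjusted p = 0.000682), both in 3 of 3 libraries against 3 of 3. Both kept their calls in all 13 alternatives. CTSA (-0.24, SE 0.07, adjusted p = 0.0224), NEU1 (-0.33, SE 0.09, adjusted p = 0.0196) and ASAH1 (-0.28, SE 0.08, adjusted p = 0.0183) were lower with siRNA-1, and also without overlap. CTSA had 54.2, 54.8 and 50.9 CPM with siRNA-1 and 60.4, 65.5 and 62.4 CPM with siRNA-2, and ASAH1 (ENSG00000104763, chromosome 8, 18055992 to 18084998, minus strand) had 363, 350.0 and 325 CPM with siRNA-1 and 418, 408 and 432 CPM with siRNA-2. With 1 library left out the log2 fold change ran from -0.27 to -0.19 for CTSA and -0.36 to -0.29 for NEU1, and both calls ended when any 1 siRNA-1 library, or siRNA-2 library 2 or 3, was left out. That of ASAH1 ended without siRNA-1 library 2 or 3 or siRNA-2 library 1 or 3 (-0.32 to -0.22). LIPA did not pass here (-0.27, adjusted p = 0.0541) and was called lower with siRNA-1 with the GC offset (-0.33, adjusted p = 0.00591). Scaled by library size only, 2 were higher and 7 lower. With the GC offset 4 were higher and 6 lower, where 13.4% of all genes passed (6.49% higher and 6.94% lower). The 5 calls gained were LIPA, ATP6V1A (-0.15) and BECN1 (-0.19), lower with siRNA-1, and LAMP2 (0.14) and ATP6V0D1 (0.17), higher with siRNA-1.

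**Figure D3:**
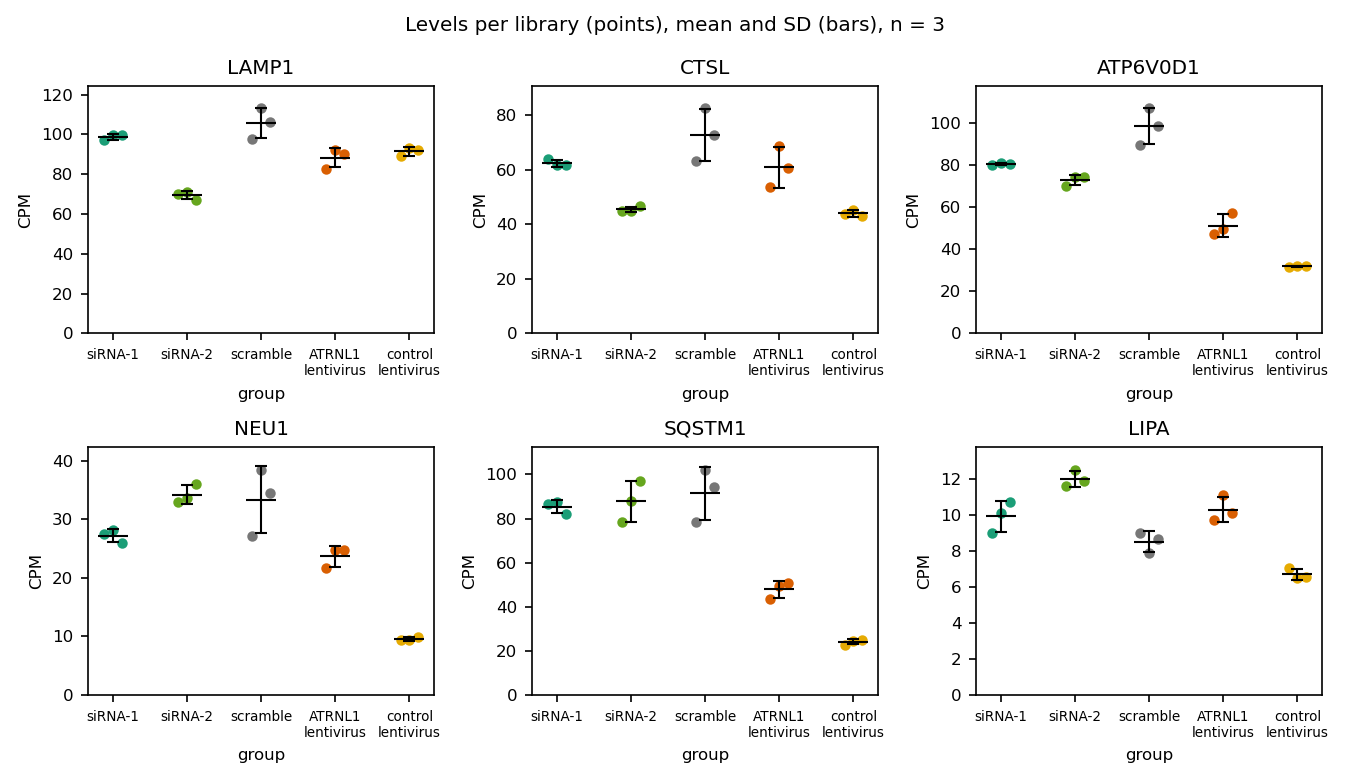
CPM (vertical axis, from 0) of 6 genes in each library (points) by group (horizontal axis), with the group mean and SD over 3 libraries (bars). LAMP1 and CTSL are lowest among the siRNA groups with siRNA-2 (69.5 ± 2.08 and 45.5 ± 1.02 CPM), and NEU1 and SQSTM1 are higher with the ATRNL1 lentivirus (23.7 ± 1.79 and 47.9 ± 3.74 CPM) than with the control lentivirus (9.53 ± 0.291 and 24.1 ± 1.18 CPM).

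With the ATRNL1 lentivirus, compared with the control lentivirus, 4 of 5 cathepsins, 4 of 5 genes of lipid handling, 2 of 5 glycosidases and 2 of 8 genes of the autophagosome machinery rose. NEU1, SQSTM1, CTSA, ATP6V0D1 and LIPA rose by 0.62 to 1.31 on the log2 scale, while the membrane proteins LAMP1 and LAMP2 did not pass the test. In all 16 of the 34 genes rose and 1 fell, 50.0%, where 37.1% of all genes tested passed (19.1% higher and 18.0% lower). Their median log2 fold change was 0.18, against 0.00 over all genes. For 20 of the 34 genes the libraries lay fully apart, where 42.9% of tested genes did.

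The change in this comparison ran with the GC content of a gene's transcripts. Across 11034 genes above 5 CPM the log2 fold change and the GC content of the longest transcript had a Pearson r of 0.31 and a Spearman rho of 0.34, and across the 34 genes r was 0.21 and rho 0.23, descriptions over genes that share the same libraries. The median over genes above 56% GC was 0.25 and that over genes under 40% GC was -0.11. A fit with a GC offset, which subtracts each library's own trend on GC, was therefore set beside the first, and was chosen after seeing the data. With it 16 genes rose and 6 fell, where 38.5% of all genes passed (17.5% higher and 21.0% lower). The median of the 34 genes was then 0.13, against -0.04 over all genes. Whether the trend is technical was not tested.

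The sialidase gene NEU1 gave the largest rise, and CTSA, CTSB, CTSD and CTSL rose with it. NEU1 had 21.6, 24.7 and 24.7 CPM with the ATRNL1 lentivirus, against 9.34, 9.39 and 9.87 CPM with the control lentivirus, a 2.48-fold difference without overlap (1.31, SE 0.10, adjusted p = 5.80e-11, and 1.23 with the GC offset). CTSA, which forms a complex with NEU1 (ENSG00000064601, chromosome 20, 45890144 to 45898820, plus strand), had 34.9, 36.8 and 39.6 CPM with the ATRNL1 lentivirus, against 21.8, 23.6 and 24.0 CPM with the control lentivirus (0.68, SE 0.07, adjusted p = 1.30e-08, and 0.40 with the GC offset). Both genes were higher in 3 of 3 libraries than in any control library, and the exons of CTSA share 17.725% of their bases with NEURL2 on the opposite strand. CTSL had 53.8, 68.8 and 60.5 CPM with the ATRNL1 lentivirus, against 43.9, 45.4 and 43.0 CPM with the control lentivirus (0.47, SE 0.08, adjusted p = 7.95e-05). CTSB had 209.8, 259 and 247 CPM with the ATRNL1 lentivirus, against 175, 185 and 180.4 CPM with the control lentivirus (0.40, SE 0.08, adjusted p = 0.000115). These 2 proteases were called with the GC offset too, at 0.37 and 0.30.

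CTSD and GAA, both near 64% GC, lost their calls with the GC offset. CTSD (ENSG00000117984, chromosome 11, 1752752 to 1764573, minus strand) had 5.71, 5.37 and 7.80 CPM with the ATRNL1 lentivirus, against 4.11, 4.91 and 5.46 CPM with the control lentivirus, groups that overlapped (0.38, SE 0.12, adjusted p = 0.0133, and 0.01, adjusted p = 0.969 with the GC offset). GAA had 6.91, 5.73 and 7.99 CPM with the ATRNL1 lentivirus, against 5.53, 5.49 and 5.25 CPM with the control lentivirus (0.33, SE 0.10, adjusted p = 0.0103, and -0.04, adjusted p = 0.749 with the GC offset). Without library 3 of the ATRNL1 lentivirus CTSD was at 0.22 and GAA at 0.24, past the test in neither case, and CTSD ended also without control library 1 (0.28). GUSB (ENSG00000169919, chromosome 7, 65960684 to 65982314, minus strand) was the 1 gene that fell, with 14.7, 13.9 and 15.6 CPM with the ATRNL1 lentivirus, against 18.1, 17.4 and 16.3 CPM with the control lentivirus (-0.23, SE 0.07, adjusted p = 0.0122, and -0.35 with the GC offset). That call ended without control library 1 (-0.19) or 2 (-0.22), and GUSB has transcribed pseudogene copies, of which GUSBP1 alone held 6711 counts against 17267 for GUSB over all libraries. GLA (-0.19, adjusted p = 0.145), HEXA (0.01, adjusted p = 0.968) and CTSZ (-0.18, adjusted p = 0.0974) did not pass, although with the GC offset CTSZ was called lower at -0.40.

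Of the 5 genes of lipid handling 4 rose, where 19.1% of all genes tested were higher. LIPA had 9.71, 11.1 and 10.1 CPM with the ATRNL1 lentivirus, against 7.03, 6.49 and 6.58 CPM with the control lentivirus, without overlap (0.62, SE 0.09, adjusted p = 4.57e-06, and 0.66 with the GC offset). ASAH1, which hydrolyses ceramide, had 615, 740.5 and 591 CPM with the ATRNL1 lentivirus, against 524, 522 and 525 CPM with the control lentivirus (0.31, SE 0.08, adjusted p = 0.00200, and 0.40 with the GC offset). NPC1 had 29.2, 28.1 and 30.4 CPM with the ATRNL1 lentivirus, against 25.1, 23.6 and 24.4 CPM with the control lentivirus (0.26, SE 0.07, adjusted p = 0.00479). None of these 3 groups of ATRNL1 lentivirus libraries overlapped its control. PSAP had 292, 323 and 336 CPM with the ATRNL1 lentivirus, against 264, 277 and 276 CPM with the control lentivirus (0.22, SE 0.07, adjusted p = 0.0113). The PSAP call ended with the GC offset (0.08, adjusted p = 0.166), without control library 1 (0.20) and without ATRNL1 lentivirus library 3 (0.19). NPC2 was at 0.15, adjusted p = 0.0879 and was called with the GC offset at 0.18.

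ATP6V0D1 had 47.1, 49.5 and 57.4 CPM with the ATRNL1 lentivirus, against 31.7, 32.0 and 32.0 CPM with the control lentivirus (0.68, SE 0.08, adjusted p = 5.52e-08, and 0.46 with the GC offset). The lowest of the 3 libraries with ATRNL1 stood above the highest control. The other pump subunits ATP6V1A (0.13, adjusted p = 0.182) and ATP6V1H (0.08, adjusted p = 0.470) did not pass, and neither did MCOLN1 (-0.22, adjusted p = 0.307), which was called lower with the GC offset at -0.54, adjusted p = 0.00928. TFEB had 9.73, 10.1 and 11.1 CPM with the ATRNL1 lentivirus, against 7.32, 8.32 and 7.07 CPM with the control lentivirus, again without overlap (0.43, SE 0.08, adjusted p = 0.000157, and 0.22 with the GC offset). TFE3 had 18.0, 19.5 and 20.6 CPM with the ATRNL1 lentivirus, against 19.1, 19.8 and 18.8 CPM with the control lentivirus. Its groups overlapped (0.01, adjusted p = 0.968), and with the GC offset it was called lower (-0.26, adjusted p = 0.00103). The genes with a CLEAR core had a median of 0.33, and -0.04 with the GC offset, against 0.18 and 0.13 in the 22 others of the promoter table. Of the 5 genes 3 were called higher, as were 10 of the 22, where 19.1% of all genes were.

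SQSTM1, the cargo receptor that itself is degraded by autophagy, had 43.6, 49.2 and 50.7 CPM with the ATRNL1 lentivirus, against 22.8, 24.6 and 24.9 CPM with the control lentivirus. It was 1.98-fold higher, with no overlap (0.99, SE 0.09, adjusted p = 2.46e-09, and 0.77 with the GC offset). Its exons share 20.669% of their bases with MRNIP on the opposite strand. The related receptor NBR1 (ENSG00000188554, chromosome 17, 43170481 to 43211689, plus strand) had 171, 214 and 182 CPM with the ATRNL1 lentivirus, against 164, 167 and 169.7 CPM with the control lentivirus (0.18, SE 0.07, adjusted p = 0.0453), a call that ended without ATRNL1 lentivirus library 2 (0.09) and when any 1 control library was left out (0.18, 0.19 and 0.21). OPTN did not pass (-0.01, adjusted p = 0.937).

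In the autophagosome machinery 2 of 8 genes rose (25.0%), where 19.1% of all genes tested were higher. WIPI1 had 21.7, 26.1 and 26.0 CPM with the ATRNL1 lentivirus, against 20.5, 19.8 and 19.2 CPM with the control lentivirus (0.31, SE 0.10, adjusted p = 0.0142), and the call ended without ATRNL1 lentivirus library 2 (0.26) or 3 (0.28). ULK1 had 11.9, 12.6 and 14.6 CPM with the ATRNL1 lentivirus, against 10.9, 10.5 and 11.0 CPM with the control lentivirus (0.27, SE 0.08, adjusted p = 0.00835), and was at -0.11, adjusted p = 0.167 with the GC offset and at 0.20 without ATRNL1 lentivirus library 3. Both groups stood just above their controls without overlap. The 6 genes that did not pass were MAP1LC3B (0.22, adjusted p = 0.0726), GABARAPL1 (0.18, adjusted p = 0.0703), ATG7 (-0.15, adjusted p = 0.144), ATG5 (-0.09, adjusted p = 0.385), ATG12 (0.02, adjusted p = 0.860) and BECN1 (-0.01, adjusted p = 0.893). LAMP1 had 82.8, 92.2 and 89.9 CPM with the ATRNL1 lentivirus, against 88.9, 93.3 and 92.2 CPM with the control lentivirus (-0.05, adjusted p = 0.588). LAMP2 had 192, 234 and 185 CPM with the ATRNL1 lentivirus, against 192, 192 and 188 CPM with the control lentivirus (0.09, adjusted p = 0.347). For both membrane proteins the groups overlapped, and with the GC offset LAMP1 was called lower at -0.13 and LAMP2 higher at 0.18. The offset also added calls for ATP6V1A (0.19), GABARAPL1 (0.16) and ATG7 (-0.22).

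**Figure D4:**
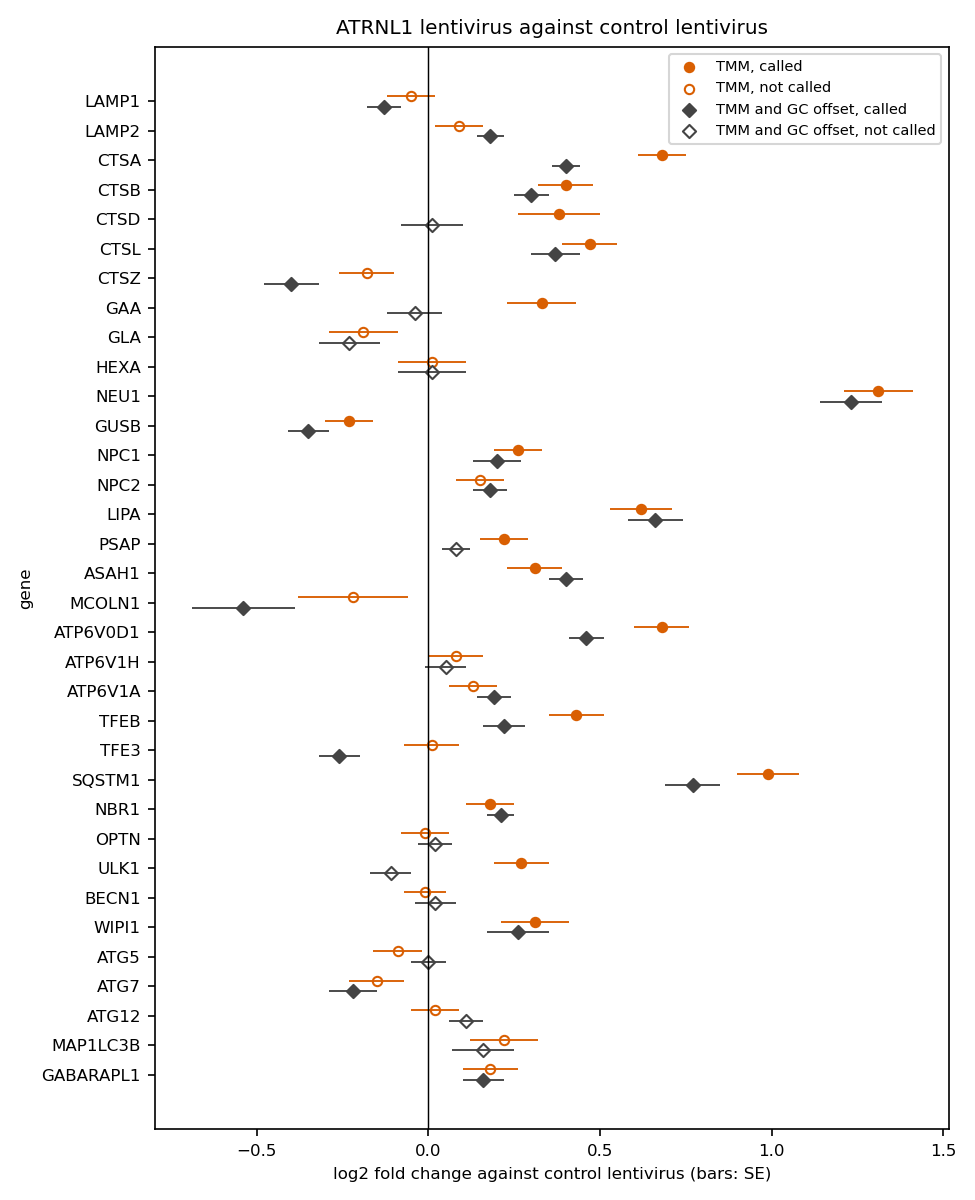
Log2 fold change of the ATRNL1 lentivirus against the control lentivirus (horizontal axis) of each of the 34 genes (vertical axis) with TMM scaling (circles) and with TMM scaling and a GC offset (diamonds), with bars for the SE and filled symbols for genes called at an adjusted p under 0.05. NEU1 (1.31 and 1.23) and SQSTM1 (0.99 and 0.77) lie farthest to the right in both fits, while GAA and ULK1 sit on the other side of 0 with the offset.

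Of the 17 calls with the ATRNL1 lentivirus, 10 were kept in all 13 alternatives. They were NEU1, CTSA, CTSB, CTSL, NPC1, LIPA, ASAH1, ATP6V0D1, TFEB and SQSTM1. All but ASAH1 were lower with the control lentivirus than with scramble, a comparison that shares the control lentivirus libraries. With the ATRNL1 lentivirus the means of LIPA (10.3 against 8.52 CPM) and ASAH1 (649 against 384 CPM) were above scramble. The other means were below it, such as NEU1 (23.7 against 33.3 CPM) and SQSTM1 (47.9 against 91.5 CPM). The ATRNL1 lentivirus was not tested against scramble. Against the control lentivirus, the ATRNL1 lentivirus libraries were also higher in genes of stress responses. The mean log2 CPM of 15 genes of the unfolded protein response was 6.14 to 6.48 with the ATRNL1 lentivirus and 5.81 to 5.84 with the control lentivirus, and that of 11 genes of the integrated stress response was 3.56 to 3.85 and 2.85 to 2.87 in the same order. Smooth muscle markers summed to 771 to 845 CPM with the ATRNL1 lentivirus and 943 to 967 CPM with the control lentivirus, and ventricular markers to 3678 to 4376 CPM and 1865 to 2404 CPM. Their part in the result was not tested.

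The control lentivirus was compared with scramble to see how far the levels of these genes differed between the delivery controls. ATRNL1 itself differed between them, at 28.0 ± 1.11 CPM with the control lentivirus and 15.3 ± 1.52 CPM with scramble. Its log2 fold change was 0.87 (SE 0.11, adjusted p = 8.53e-08), and 0.33 with the GC offset. In the control lentivirus libraries GAA, CTSD, SQSTM1 and NEU1 stood at a fraction of 0.201 to 0.285 of their scramble level, and 4 of 5 cathepsins were lower. Of the 34 genes 8 were higher and 20 lower, where 63.6% of all genes tested passed (30.3% higher and 33.2% lower), and their median log2 fold change was -0.34, against -0.06 over all genes. For 29 of the 34 genes the libraries lay fully apart, where 68.5% of tested genes did. Vector, selection, any difference in culture time and any difference in library preparation cannot be told apart here. Other genes differed between these groups as well. Smooth muscle markers summed to 943 to 967 CPM with the control lentivirus and 319 to 487 CPM with scramble. Lower with the control lentivirus were 14 of 15 genes of the unfolded protein response (median -1.23) and 9 of 11 of the integrated stress response (median -1.90). Their part in the result was not tested.

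GAA was at 5.42 ± 0.152 CPM with the control lentivirus and 27.0 ± 2.42 CPM with scramble (-2.31, SE 0.10, adjusted p = 1.87e-16), and CTSD at 4.83 ± 0.677 and 20.7 ± 1.08 CPM (-2.11, SE 0.11, adjusted p = 1.87e-14). SQSTM1 stood at 24.1 ± 1.18 CPM with the control lentivirus and 91.5 ± 12.3 CPM with scramble (-1.93, SE 0.09, adjusted p = 1.82e-15), and NEU1 at 9.53 ± 0.291 and 33.3 ± 5.74 CPM (-1.81, SE 0.10, adjusted p = 1.70e-14). Others lower by more than 1 on the log2 scale were MCOLN1 (-1.64), ATP6V0D1 (-1.63), ULK1 (-1.62), TFEB (-1.41), CTSA (-1.28) and CTSB (-1.12). NPC1 (-0.92), WIPI1 (-0.81), PSAP (-0.73), CTSL (-0.72) and TFE3 (-0.62) were lower by 0.62 to 0.92. ATG7 (-0.38), LIPA (-0.35), BECN1 (-0.33), NPC2 (-0.23) and LAMP1 (-0.21) completed the 20 that were lower. BECN1 (ENSG00000126581, chromosome 17, 42810134 to 42833350, minus strand) had 29.7, 31.5 and 32.2 CPM with the control lentivirus, against 39.5, 38.8 and 38.7 CPM with scramble, and NPC2 (ENSG00000119655, chromosome 14, 74476192 to 74494177, minus strand) had 41.6, 44.3 and 40.3 CPM, against 48.1, 50.3 and 49.6 CPM, both without overlap.

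The 8 genes that were higher included 3 of the autophagy conjugation and receptor genes. GLA (ENSG00000102393, chromosome X, 101397803 to 101408012, minus strand) had 7.13, 6.92 and 6.02 CPM with the control lentivirus, against 4.34, 4.76 and 4.58 CPM with scramble (0.56, SE 0.10, adjusted p = 2.94e-05). ATG12 had 72.2, 71.3 and 71.8 CPM with the control lentivirus, against 46.6, 52.2 and 48.9 CPM with scramble (0.54, SE 0.07, adjusted p = 5.26e-07). In both genes each control lentivirus library was above each scramble library. ATP6V1H (ENSG00000047249, chromosome 8, 53715557 to 53843558, minus strand) had 81.8, 79.1 and 76.0 CPM with the control lentivirus, against 58.9, 55.2 and 57.0 CPM with scramble (0.47, SE 0.08, adjusted p = 7.06e-06). ATG5 (ENSG00000057663, chromosome 6, 106045423 to 106325791, minus strand) had 53.7, 52.5 and 51.7 CPM with the control lentivirus, against 37.0, 39.1 and 39.9 CPM with scramble (0.44), and OPTN (ENSG00000123240, chromosome 10, 13099449 to 13138308, plus strand) had 111, 108 and 108 CPM, against 79.0, 80.6 and 82.5 CPM (0.44). These 3 genes also showed no overlap. CTSZ, a cysteine carboxypeptidase (ENSG00000101160, chromosome 20, 58995185 to 59007247, minus strand), had 55.6, 50.9 and 49.3 CPM with the control lentivirus, against 49.0, 36.8 and 41.6 CPM with scramble (0.29, SE 0.08, adjusted p = 0.00293), a call that ended without scramble library 2 (0.18). ASAH1 (0.45) and LAMP2 (0.33) were the other two, and HEXA, GUSB, ATP6V1A, NBR1, MAP1LC3B and GABARAPL1 did not pass.

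These values ran with GC content. Across the 34 genes the log2 fold change and transcript GC content had r = -0.78 and rho = -0.75, and across 11034 genes above 5 CPM r was -0.67 and rho -0.69, again as descriptions over genes of the same libraries. The 10 genes above 56% GC had a median of -1.62, where all 2288 genes in that class had -1.09, and the 4 genes under 40% GC had a median of 0.45, where all 2079 had 0.60. Genes between 48% and 56% GC had medians of -0.72 for the 11 listed and -0.21 for all 2630, and those between 40% and 48% had -0.06 for 9 and 0.32 for 4037. With the GC offset 6 genes were higher and 24 lower, where 56.7% of all genes passed (26.2% higher and 30.5% lower), and the median was -0.26, against -0.09 over all genes. NEU1 (-1.60) and SQSTM1 (-1.10) stayed lower by more than 1, GAA was at -0.80 and CTSD at -0.62, and CTSZ was at 1.15. LAMP2 (-0.28), ASAH1 (-0.17) and ATG5 (-0.12) were then lower, TFE3 (0.40) was higher, and LAMP1 (-0.03, adjusted p = 0.637), ULK1 (-0.10, adjusted p = 0.137) and ATG12 (-0.07, adjusted p = 0.237) did not pass. Calls gained with the offset were HEXA (-0.27), ATP6V1A (-0.44), NBR1 (-0.14) and GABARAPL1 (-0.16), lower, and GUSB (0.36), higher. Without the offset the 5 genes with a CLEAR core were all called lower, as were 13 of the 22 others of the promoter table, where 33.2% of all genes were. Their medians were -1.63 and -0.34, and -0.37 and -0.20 with the offset.

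**Figure D5:**
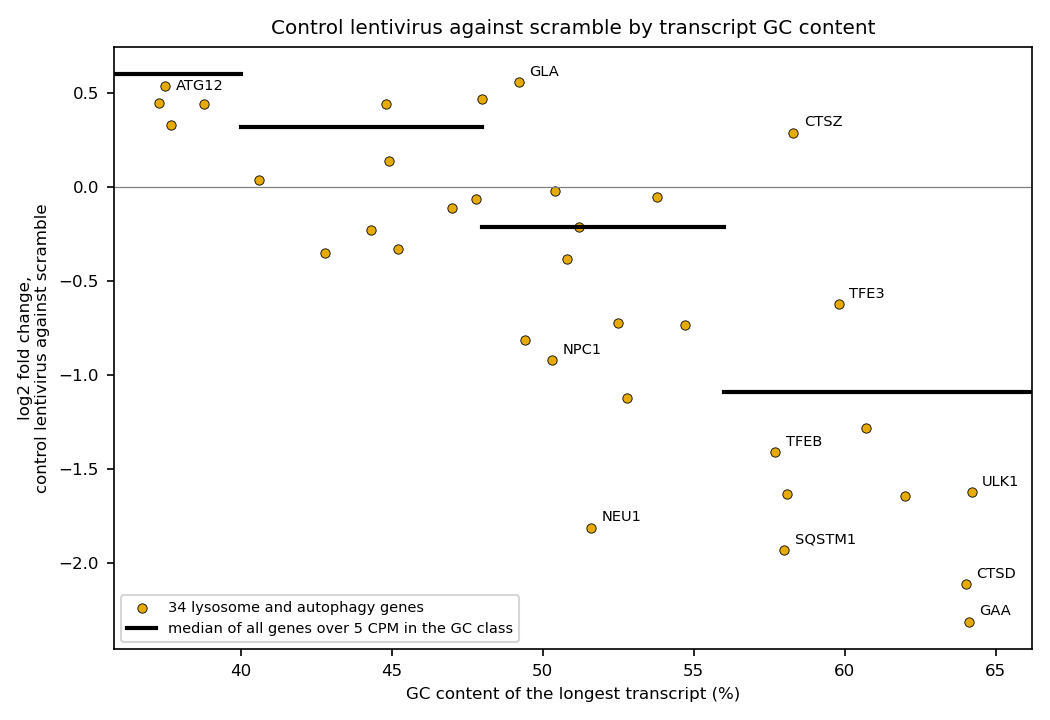
Log2 fold change of the control lentivirus against scramble (vertical axis) against the GC content of the longest transcript in percent (horizontal axis) for the 34 genes (points), with the median of all genes above 5 CPM in 4 GC classes (bars). The points fall with GC content along with the bars (r = -0.78 over the 34 genes), and CTSZ at 0.29 lies above the bar of its class while NEU1 at -1.81 lies below its own.

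A list of 151 other lysosome and autophagy genes gave the rest of the pathway, and all 151 were tested. With siRNA-2, 11 rose and 37 fell (median -0.07), and with siRNA-1, 4 rose and 8 fell (median -0.06). Of all genes tested 9.64% were higher and 8.48% lower with siRNA-2, and 5.85% and 3.76% with siRNA-1, where the share of the 151 called, 7.95%, was below the 9.61% of all genes. With the GC offset 16 rose and 45 fell with siRNA-2, and 5 rose and 26 fell with siRNA-1 (20.5%, against 13.4% of all genes). The largest falls with siRNA-2 were in GALC, which degrades galactolipids, and RRAGD, a GTPase that signals amino acid supply at the lysosome. GALC stood at 34.5 ± 2.22 CPM with siRNA-2 and 78.3 ± 1.85 CPM with scramble (-1.18, SE 0.07, adjusted p = 2.56e-11), and RRAGD at 190.0 ± 4.07 and 367 ± 6.29 CPM (-0.95, SE 0.07, adjusted p = 1.00e-09). Both were higher with siRNA-1 than with siRNA-2 in the direct comparison, GALC by 0.95 and RRAGD by 0.82. Of 14 other proton pump subunits 6 fell with siRNA-2 and 0 passed with siRNA-1, against 7 and 4 lower with the GC offset. Among them ATP6V1B2, a subunit beside the catalytic one, was at 62.6 ± 3.64 CPM with siRNA-2 and 91.0 ± 3.81 CPM with scramble (-0.54, SE 0.06, adjusted p = 1.14e-06), and ATP6V0E2 fell by 0.43. Genes that rose with siRNA-2 included PRKAA2, a catalytic subunit of the energy sensor AMPK, at 259 ± 12.5 and 168 ± 5.87 CPM (0.63, SE 0.08, adjusted p = 1.77e-06) and VPS41 (0.36).

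With siRNA-1 the largest falls were in NAGLU, which degrades heparan sulfate (5.83 ± 0.169 CPM with siRNA-1 and 9.61 ± 1.42 CPM with scramble, -0.72, SE 0.14, adjusted p = 0.000878), TMEM41B, a lipid scramblase of early autophagosomes (-0.50), the endolysosomal channel gene TPCN1 (-0.42) and FNIP2 (-0.27). Rises included CALCOCO2, a cargo receptor, at 80.3 ± 2.01 CPM with siRNA-1 and 61.3 ± 2.88 CPM with scramble (0.39, SE 0.07, adjusted p = 0.000338), and RAB7A, the GTPase of late endosomes (0.37), and VPS41 rose as well (0.25). Between the siRNAs 15 of the 151 were higher and 12 lower with siRNA-1, where 5.60% of all genes were higher and 4.53% lower, with ATP6V1B2 (0.59) and STX17 (0.42) among the higher and PRKAA2 (-0.61), CTSK (-0.49), NAGLU (-0.44) and GNPTAB (-0.41) among the lower.

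With the ATRNL1 lentivirus 63 of the 151 rose and 21 fell (median 0.15), where 19.1% of all genes tested were higher and 18.0% lower. With the GC offset 61 rose and 28 fell (median 0.11), where 17.5% of all genes were higher and 21.0% lower. Of 17 other cargo receptors and genes of selective autophagy 10 were higher and 0 lower, and 11 were higher with the GC offset. BNIP3, a receptor for mitochondria, was at 1049 ± 194 CPM with the ATRNL1 lentivirus and 235 ± 81.3 CPM with the control lentivirus (2.16, SE 0.16, adjusted p = 5.18e-11), and its relative BNIP3L at 363 ± 42.7 and 160.2 ± 24.5 CPM (1.18, SE 0.09, adjusted p = 1.73e-10). FNIP2, a partner of folliculin in nutrient sensing, was at 343 ± 54.0 and 94.5 ± 1.39 CPM (1.86, SE 0.09, adjusted p = 4.23e-14), and SLC17A5, the sialic acid exporter of the lysosome, at 60.7 ± 5.90 and 27.2 ± 0.903 CPM (1.16, SE 0.07, adjusted p = 1.56e-12). The largest falls were in CTSV (-1.15), VMP1 (-1.10), CTSO (-0.77) and ARSB (-0.67). Of these, VMP1, CTSO and CTSV were among the 41 of 151 that were higher with the control lentivirus than with scramble (30.3% of all genes were higher and 33.2% lower), by 1.18, 1.08 and 1.07, beside AGA (1.29). These comparisons share the control lentivirus libraries. The 78 that were lower with the control lentivirus included NAGLU (-2.44), ATG4D (-2.31), ATG2A (-2.24) and TEX264 (-2.03), which were at -0.90, -0.74, -0.75 and -1.54 with the GC offset.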

How the data were processed

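RNA was measured in 15 libraries, 3 in each of 5 groups. The authors deposited 1 table of raw read counts per gene, with 58780 gene rows and 649 rows without a gene identifier. Those 649 rows held 0.00157% to 0.00437% of the reads and stayed out of library sizes and tests. Per the submitters' processing notes the tools were STAR 2.7.9a and DESeq2 1.30.1 and the build GRCh 38; the counter and any use of strand are not stated there. Each column name showed a group but not which labelled sample it held. Labels give the molecule as polyA RNA, while the protocol describes ribosomal depletion.

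Counts as deposited were fitted with edgeR 4.0.16 under R 4.3.3, with TMM scaling, filterByExpr by group and quasi-likelihood tests over all 15 libraries, so 5 group means shared 1 estimate of the spread. Of the genes 24659 were tested, and calls were made at a Benjamini-Hochberg adjusted p under 0.05. Levels are CPM with TMM-scaled library sizes. Total counts of 37078568 to 108663135 set the precision, and no pair of libraries was identical.

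Alternatives were DESeq2 1.42.0, limma-voom (limma 3.58.1), other scalings, no filter, only the compared groups, each library left out and each scramble library as the sole control. A GC offset, fitted by lowess (span 0.3) over genes above 5 CPM, was added after seeing the data. The fit was checked on simulated data. Members and lists were chosen with earlier results of these data known. Per-library values are given for members called in any comparison and for both transcription factors; of the 151 other pathway genes, up to 4 called rises and 4 called falls per comparison with a mean of at least 1 CPM were named, and some of these are not reported here. Promoters are from RefSeq (GRCh38.p14) and gene positions and transcripts from GENCODE release 29.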

Additional observations from a re-analysis of the deposited data

Results flagged for a closer look

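For 5 of the 34 genes (14.7%) the siRNA-1 and siRNA-2 groups differed in the direct test, although both siRNAs were directed at ATRNL1. Of all genes tested 10.1% did. LAMP1 was higher with siRNA-1 by 0.51 on the log2 scale and CTSL by 0.45, in edgeR's quasi-likelihood test over all 24659 genes. NEU1 was lower with siRNA-1 at -0.33, ASAH1 at -0.28 and CTSA at -0.24. Only LAMP1 and CTSL kept their calls with any 1 library left out. ATRNL1 itself was higher with siRNA-1 than with siRNA-2 by 0.87. So were 12 of 13 mitochondrially encoded mRNAs, where 5.60% of all genes were higher with siRNA-1. Their part in these differences was not tested.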

How the results depend on the processing

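The number of genes called with siRNA-1 was 10, and 0 where scramble library 1 or 3 alone was the control; leaving out 1 library gave 0 to 11. With siRNA-2 it was 10, against 3 where scramble library 1 alone was the control, 16 with the GC offset (5 higher and 11 lower), and 7 to 12 with 1 library left out. Between siRNA-1 and siRNA-2 it was 5, against 9 with scaling by library size only, 10 with only the compared groups in the fit and 10 with the GC offset, and 2 to 4 with 1 library left out. It ran from 13 to 20 for the ATRNL1 lentivirus and from 27 to 28 for the control lentivirus with 1 library left out. For the fits with fewer libraries the share of all genes called is not given, so a general loss of calls was not set apart. NEU1 with siRNA-1 was at 0.00 when scramble library 1 alone was the control. With the GC offset GAA (-0.04) and ULK1 (-0.11) changed sign for the ATRNL1 lentivirus, as did LAMP2 (-0.28), ASAH1 (-0.17), TFE3 (0.40), ATG5 (-0.12) and ATG12 (-0.07) for the control lentivirus, where LAMP1 (-0.03) lost its call. Of the 151 other pathway genes 4 rose and 8 fell with siRNA-1 (7.95%, where 9.61% of all genes passed). With the GC offset 5 rose and 26 fell (20.5%, where 13.4% of all genes passed). Their median log2 fold change was -0.06 without the offset and -0.07 with it. Why calls were gained or lost with the offset was not tested. Scaling by library size only moved the median of all genes for control lentivirus against scramble to -0.26, where it was -0.06 with TMM scaling. Over single genes 899 values kept direction and call, 147 lost the call and 8 changed sign. A fit with 1 control library assumes that it varies like the other groups. No paired analysis was possible because the columns carry no replicate numbers that match the labels.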
